A study of Mus musculus with 24 samples.

Results

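The regions described here are those that were almost fully methylated in liver invariant natural killer T (LiNKT) cells of untreated NOD mice and had lost most of that methylation in cells of treated mice. They were chosen on the group means of the deposited table of differentially methylated regions (DMRs): a mean of at least 80% in untreated and under 40% in treated cells. This picked 330 of 2873 regions, or of the 1983 that were lower in treated cells. LiNKT cells were sorted with αGalCer/CD1d tetramers, and NOD mice develop autoimmune diabetes spontaneously. Treated mice received αGalCer/CD1d-NPs, iron oxide nanoparticles coated with CD1d that carries the glycolipid αGalCer, at 20 µg per dose, 2 doses per week, for 5 weeks. Untreated mice received none of these. The study's methods say that controls in general were either untreated or given control nanoparticles (Cys-NPs). Its methods call the multiome controls untreated, whereas a figure legend has them given vehicle. Methylation was read by whole genome bisulfite sequencing (WGBS) in cells of 7 untreated female mice aged 17 weeks and of 4 treated mice aged 16 weeks, whose sex is not given in the sources used here. These cells were sorted as 6 replicates over both groups, but the tables hold 1 value per group. Chromatin came from a multiome of 5 untreated and 4 treated male mice, and expression from SmartSeq2 cells of 3 untreated and 3 treated male mice. Per the study's methods, the mice of both were younger than the WGBS mice. Every kind of table holds 1 value or 1 set of cells per group, so that no comparison below has a replicate check, no test was made, and age, and possibly sex, go with the treatment in the WGBS data. In pooled cells, more cells of another kind and a change within each cell cannot be told apart.

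In vertebrate DNA, most cytosines that precede a guanine (CpGs) carry a methyl group. Distal enhancers and active promoters are the usual exceptions: transcription factors bind there, the nucleosomes open, and TET enzymes or DNA replication without maintenance remove the mark. In T cells, loss of methylation at enhancers of cytokine and receptor genes accompanies effector and regulatory differentiation. T regulatory type 1 (Tr1) cells, with whose profile the study compares the LiNKT cells of treated mice, are known for secreting IL-10 and for displaying CTLA-4 and ICOS on their surface.

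To show what such a region looks like, 6 windows of 200 bases are printed from the reference genome (GRCm38, plus strand, 5′ to 3′). Each is the CpG-richest stretch, outside untranslated parts of exons, of the region with most CpGs at its gene. Capitals mark the CpGs. They come from the sequence upstream of the cytokine gene Il10 (chr1:131003550-131003749), from near the transcription start of the cytokine gene Il21 (chr3:37231332-37231531), from an intron of Nfil3, which encodes a basic leucine zipper repressor (chr13:52976642-52976841), from a part of Irf4 that holds a coding exon of this T cell transcription factor (chr13:30751598-30751797), from the last coding exon of Rgs16, a brake on G protein signalling (chr1:153743648-153743847), and from an intron of the demethylating enzyme gene Tet2 (chr3:133515311-133515510).
Il10: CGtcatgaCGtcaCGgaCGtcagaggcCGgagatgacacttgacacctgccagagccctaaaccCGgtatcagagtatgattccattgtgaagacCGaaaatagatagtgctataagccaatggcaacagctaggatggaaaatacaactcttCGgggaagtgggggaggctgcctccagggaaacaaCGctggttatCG
Il21: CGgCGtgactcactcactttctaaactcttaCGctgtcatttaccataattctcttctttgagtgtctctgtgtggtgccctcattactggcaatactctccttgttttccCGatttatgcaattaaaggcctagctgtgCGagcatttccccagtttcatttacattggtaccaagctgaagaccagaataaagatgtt
Nfil3: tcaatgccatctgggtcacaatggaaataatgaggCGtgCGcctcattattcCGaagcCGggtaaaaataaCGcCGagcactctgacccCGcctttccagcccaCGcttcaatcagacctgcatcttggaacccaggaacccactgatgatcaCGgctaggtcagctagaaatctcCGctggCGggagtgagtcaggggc
Irf4: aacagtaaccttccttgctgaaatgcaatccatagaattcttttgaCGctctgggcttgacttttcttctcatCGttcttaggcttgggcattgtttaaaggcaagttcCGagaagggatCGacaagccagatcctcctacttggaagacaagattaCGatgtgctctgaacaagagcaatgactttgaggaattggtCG
Rgs16: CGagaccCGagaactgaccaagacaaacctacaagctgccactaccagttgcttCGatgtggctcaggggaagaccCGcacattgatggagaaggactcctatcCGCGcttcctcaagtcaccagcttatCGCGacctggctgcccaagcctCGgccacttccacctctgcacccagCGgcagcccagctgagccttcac
Tet2: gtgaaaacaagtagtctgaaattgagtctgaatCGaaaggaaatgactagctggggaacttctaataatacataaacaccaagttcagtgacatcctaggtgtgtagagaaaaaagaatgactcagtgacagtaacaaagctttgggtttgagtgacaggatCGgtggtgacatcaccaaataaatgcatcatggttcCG
The Il10 window holds 10 CpGs, and its 20 cytosines (both strands) averaged 90.9 ± 5.27% (SD over cytosines) in untreated and 38.1 ± 11.3% in treated cells. The 11 CpGs of the Nfil3 window averaged 92.9 ± 4.81% and 26.5 ± 4.38%, respectively, and the 5 of the Il21 window 92.5 ± 4.14% and 18.2 ± 5.27%. In the Irf4 window the values were 93.4 ± 3.55% and 45.5 ± 9.29% (6 CpGs), in the Rgs16 window 90.2 ± 6.96% and 31.0 ± 14.1% (10 CpGs), and in the Tet2 window 85.7 ± 6.06% and 28.2 ± 12.9% (3 CpGs). Much of the treated SD of the Il10 window lay between strands. Its treated plus-strand cytosines were at 20 to 39% and the minus-strand ones at 38 to 57%. With the strands averaged, its CpGs were at 32 to 46%. The cause was not tested. The lowest untreated and the highest treated cytosine did not overlap in these windows: at Il10 they were 79% and 57%, and at Rgs16, where they came closest, 76% and 60%. In windows chosen the same way but not printed they were nearer at Prdm1 (72% and 69%), and 58% and 35% at Ctla4. The Ctla4 window averaged 77.3 ± 12.9% in untreated cells.

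By the group means that chose them, the 330 regions had a median of 86.0% in untreated (80.01 to 94.99) and of 32.5% in treated cells (6.667 to 39.99), with a median difference of 54.1 points (41.32 to 80.88). The 847 other losing regions that were at 80% or more in untreated cells, called regions of partial loss here, had a treated median of 55.8%. The limits cut through a continuous range, as the plot of group means shows. Just inside the untreated limit lay regions in Inpp4b (80.01%) and Pip4k2a (80.02%), and just outside it regions in Rin2 and near Gm11127 (both 79.96%). Just inside the treated limit lay a region in Prdm1 (39.99%) and another in Tbcd (39.95%), and just outside it regions in Ccny and near Stx11 (both 40.02%).

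**Figure D1:**
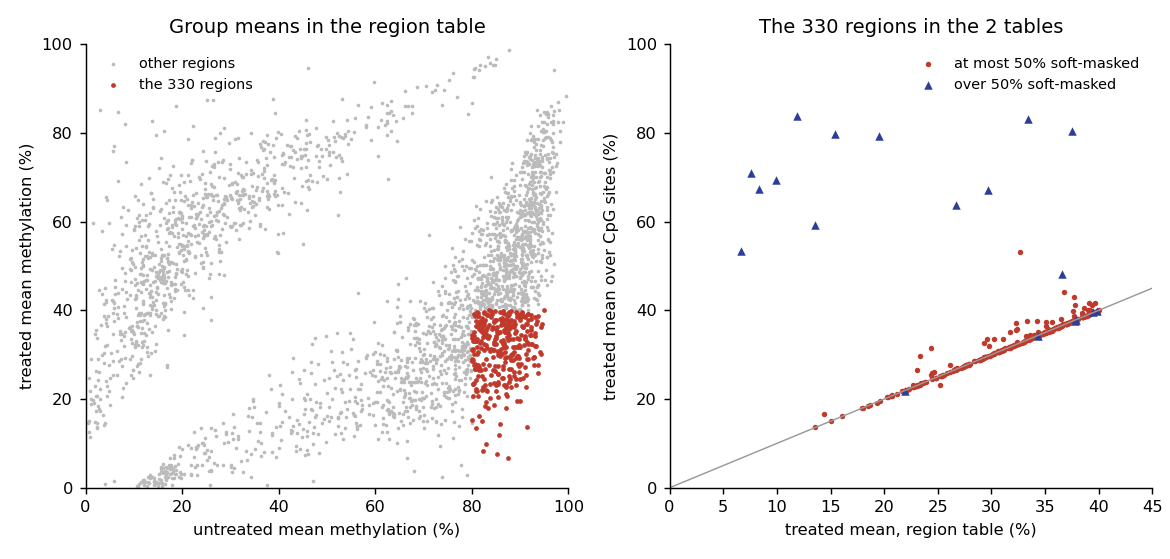
Left, mean methylation (%) of every DMR in untreated (x) and treated (y) cells, 1 point per region, with the 330 regions in red at the lower right, cut out by the limits of 80% and 40%. Right, for the 330 regions, the treated mean in the region table (x) against the mean over CpG cytosines in the site table (y): the line marks equal values, and 13 of the 19 regions with over 50% soft-masked bases (triangles) lie more than 10 points above it.

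The region table could be set against the separate table of cytosines. Over the cytosines, 290 of the 330 regions met the same limits. Most of the 40 that missed them lay close to a limit, but 14 were off by more than 10 points in treated cells, and 13 of these were among the 19 regions of which more than 50% is soft-masked, that is, marked as repeat in the genome. In these 19 the treated median was 26.7% in the region table and 63.8% over cytosines; in the other 311 it was 32.6% and 33.2%. The largest stated differences are concerned most: 7 of the first 10 are such repeats, among them introns of Rnls (6.67% in the table and 53.4% over cytosines), Sgip1 (7.63% and 71.0%) and Vmn2r46 (11.9% and 83.7%), all in treated cells. Untreated means also differed, by up to 28.1 points over the 330. Over cytosines, such a region therefore need not be lower in treated cells. The first 3 without this disagreement were a region in the non-coding gene Gm37004 (chr2:78976995-78977652; 85.9% in untreated and 14.4% in treated cells), one in Gm14005 and Gm29010 (chr2:128457782-128458084; 89.3% and 19.6%) and one in 2010111I01Rik (chr13:63274355-63275160; 87.1% and 18%). Methylation over cytosines and chromatin are therefore also given below for the other 311.

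The 330 regions were about as long as other DMRs and had a similar density of CpGs. Their median length was 401.5 bp (203 to 2750), near that of all DMRs (395 bp), and they held a median of 14 CpG cytosines (10 to 90), as compared to 16. Per 100 bp, they had a median of 1.92 CpGs, as compared to 1.95 in the regions of partial loss and 2.03 in all DMRs. Their median GC content was 44.7%, as compared to 45.5% in the regions of partial loss, 47.4% in all regions and 51.1% in the 890 that gained methylation, and 9 of them (2.73%) had the composition of a CpG island (GC of at least 50% and an observed to expected CpG ratio of at least 0.6), as compared to 1.42% of the regions of partial loss and 8.31% of gaining regions. The longest lay between genes at 42691 bp from Pttg1, a regulator of sister chromatid separation (chr11:43380811-43383560; 2750 bp, 78 cytosines, 87.3% and 34.0%). Next in length were the regions of Il21 (2131 bp), Rgs16 (2099 bp, with the most cytosines, 90), one near the chemokine receptor gene Ccr1 (1601 bp), and one across Tnfrsf4, which encodes OX40, and the neighbouring Sdf4 (1543 bp).

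They also lay mostly far from promoters, as did the regions of partial loss. An intron of a protein-coding gene held 172 of them (52.1%), an exon 46 (13.9%), a non-coding gene alone 20 (6.06%), and 92 (27.9%) lay between genes. These shares were near those of the regions of partial loss (52.3, 14.3, 5.9 and 27.5%) and of all regions (51.3, 16.8, 6.72 and 25.2%). Within 2 kb of a transcription start site (TSS) were 27 (8.18%), as compared to 9.92% of the regions of partial loss, 14.4% of all regions, 18.7% of losing regions that started below 80% and 17.2% of gaining regions. Only 9 (2.73%) were that near the TSS of a protein-coding gene, as compared to 4.13% of the regions of partial loss and 6.68% of all regions. The median distance to such a TSS was 35847 bp, as compared to 37608 bp in the regions of partial loss, and 278 regions (84.2%) were beyond 10 kb, as compared to 79.3% of those and 75.5% of all regions.

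Some of the regions lay close together. Within 50 kb of another of the 330 were 72 (21.8%), and within 10 kb 43 (13.0%); of the 847 regions of partial loss, 17.2% had one of the 330 within 50 kb, and of the gaining regions 3.48%. The 72 formed 32 runs. The largest were 4 regions with 53 CpG cytosines from Ctla4 to Icos (chr1:60902572-60975441) and 4 regions with 90 cytosines at Il21 (chr3:37228688-37264312). Runs of 3 lay upstream of Il10 (chr1:130999570-131003850; 58 cytosines), in Irf4 (62), in the polyglutamine protein gene Atxn1 (61) and in the inositol trisphosphate receptor gene Itpr1 (42). By gene, Atxn1 held 6 regions, Itpr1 5, the oxidoreductase gene Wwox 4, and Il21, Irf4, the protein kinase C gene Prkca and Arhgap15 3 each. In all, 222 genes (187 protein-coding, 0.852% of those annotated) had at least 1 of the regions in the body.

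Of 5 lists of genes that matter to these cells, 20 genes had at least 1 of the 330 regions in the body or, outside genes, within 50 kb of the TSS. Of 30 Tr1-associated genes, 9 held a region in the body (30%; Ctla4, Ikzf3, Il21, Irf4, Itgb1, Nfia, Nfil3, Prdm1 and Tnfrsf4), and Il10 and Icos had one nearby. It was 5 of 38 genes of T cell receptor signalling (13.2%; Cd28, Nfkb1, Ptpn22, Rgs16 and Tox), 2 of 24 of cytokine and TGF-β signalling (8.33%; Stat3 and Stat5b), 1 of 25 of the iNKT lineage (4.00%; Cd44) and 1 of 10 of the DNA methylation machinery (10.0%; Tet2). Of all protein-coding genes it was 0.852%. Any losing region, the 330 included, lay in the body of 20, 15, 8, 7 and 1 genes of the lists, in the same order. The many Tr1-associated genes are thus not particular to the 330. The lists were chosen with earlier results of these data known, so that these shares are no independent evidence. Together the 20 genes account for 34 regions, with untreated means of 80.2 to 92.3% and treated means of 20.6% and more (median of 33.9%).

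Among the cytokine genes, Il10, which encodes the main suppressive cytokine of Tr1 cells, had its 3 regions in 4281 bp, centred 16312 to 20076 bp upstream of the TSS. Mean methylation was 81.5% in untreated and 26.5% in treated cells in the outermost (chr1:130999570-130999968; 12 cytosines), 88.0% and 36.6% in the next (chr1:131000272-131000859; 14) and 89.4% and 38.5% in the innermost (chr1:131003216-131003850; 32). At Il21, a growth and differentiation factor for lymphocytes, the regions covered the start of the gene (chr3:37230922-37233052; 91.3% and 25.4%), an exon (chr3:37229778-37230610; 82.9% and 34.6%), an intron (chr3:37228688-37229069; 85.4% and 34.8%) and a stretch 31243 bp upstream (chr3:37263446-37264312; 85.0% and 23.2%). The region at the start of Il21 also overlaps the non-coding genes Gm12534 and Gm43822.

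Among receptors, Ctla4, an inhibitory receptor that competes with CD28 for the same ligands, had a region in an intron (chr1:60902572-60903097; 89.7% and 29.3%). Between it and the costimulatory receptor gene Icos lay 3 more, at 43515 and 50079 bp downstream of the Ctla4 TSS (81.1% and 30.1%; 89.7% and 27.5%) and at 2595 bp upstream of the TSS of Icos (chr1:60975224-60975441; 80.2% and 20.6%). Tnfrsf4 was covered from its promoter into coding exons (chr4:156013449-156014991; 82.5% and 39.7%), with 1 cytosine at 26% in untreated cells. Cd28, the main costimulatory receptor, had its region in the 3′ part of the gene in an untranslated exon (83.5% and 27.6%), Cd44, the hyaluronan receptor of antigen-experienced T cells, in a coding exon (82.7% and 34.1%), and Itgb1, the β1 integrin gene, in an intron (86.3% and 38.4%).

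The transcription factor genes differed in where their regions lay. At Nfil3 a region of 1006 bp in an intron, 3829 bp from the TSS, had 82.4% and 22.8% (chr13:52976239-52977244; 45 cytosines). The 3 regions of Irf4 lay 2369, 4043 and 5033 bp into the gene (82.0% and 35.4%, 92.3% and 37.9%, 85.4% and 30.8%). Prdm1, which encodes Blimp-1, had one near its 3′ end (chr10:44450195-44450693; 83.6% and 39.99%), and a further one outside the gene 127281 bp from its TSS had the lower treated mean (chr10:44400400-44401220; 84.7% and 18.7%). Deep introns held the regions of Nfia (84.9% and 21.7%, 83.7% and 23.3%) and of the exhaustion-associated factor gene Tox (81.1% and 33.6%, 87.5% and 38.8%). Those of the Ikaros family gene Ikzf3 lay in an intron (92.2% and 34.3%) and a coding exon (86.7% and 36.9%). Regions were also found in an intron of Nfkb1, an NF-κB subunit (85.8% and 38.0%), and in the genes of the cytokine-activated factors STAT3 (81.2% and 20.7%) and STAT5B (82.6% and 36.7%).

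Signalling genes had single regions or a pair. Rgs16 held one of 230 bp (chr1:153741767-153741996; 87.0% and 21.2%) and, 1.2 kb on, the one of 2099 bp (chr1:153743219-153745317; 91.5% and 35.3%), which runs from the last coding exon into the 3′ untranslated part. The intron of the phosphatase gene Ptpn22 had 90.7% and 36.2%, and that of Tet2, which oxidises methylated cytosine, 88.2% and 29.8%. Outside the lists, the 4 regions of Wwox lay deep in its introns, 538668 to 632036 bp from the TSS, with untreated means of 82.5 to 93.2% and treated means of 32.4 to 38.5%. The 6 of Atxn1 had treated means of 22.7 to 38.6%, the 5 of Itpr1 24.8 to 38.4%, the 3 of Prkca 27.9 to 31.8% and the 3 of Arhgap15 26.5 to 27.5%. Among the 10 regions with the lowest q-values, further ones lay in introns of the ETS repressor gene Etv6 (chr6:134224798-134225924; 91.6% and 31.0%), the synaptotagmin-like gene Sytl3 (chr17:6663430-6664516; 87.0% and 22.7%) and Ifngas1, a non-coding RNA gene beside Ifng (chr10:118527097-118527645; 91.1% and 34.2%).

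**Figure D2:**
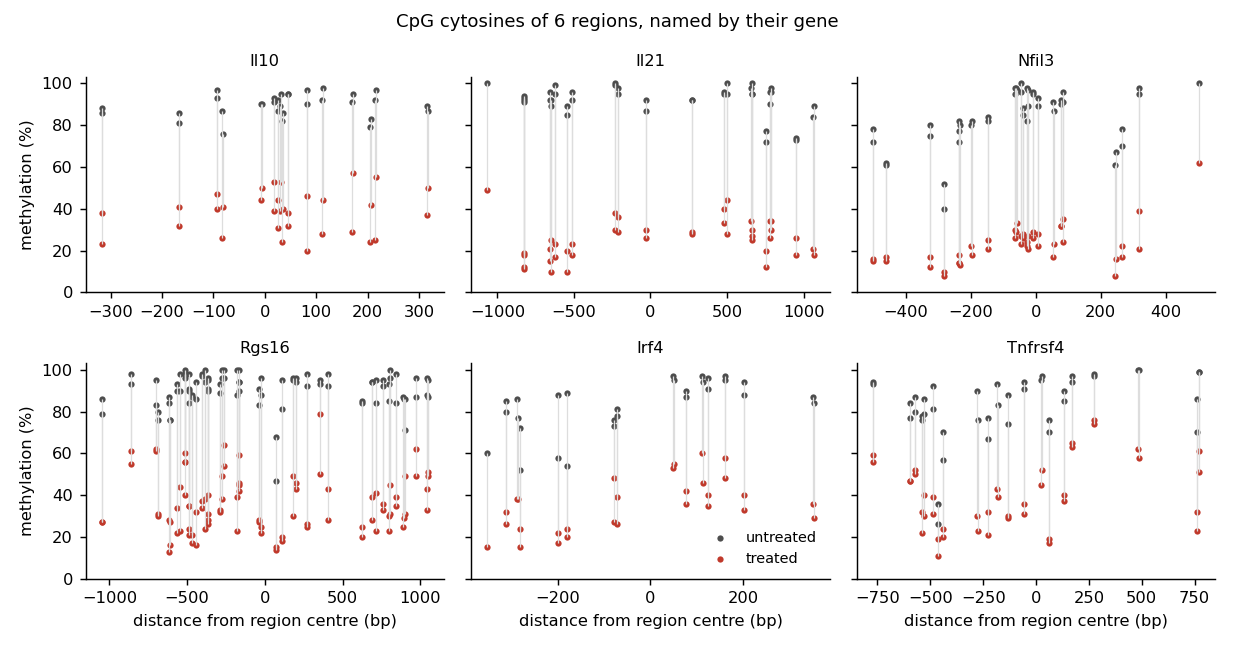
Methylation (%) of every CpG cytosine in 6 of the 330 regions, against the distance (bp) from the region's centre; each line joins the untreated (grey) and treated (red) value of the same cytosine. In the Il10 region the treated values lie between 20 and 57% and the untreated ones between 76 and 98%, whereas in the Tnfrsf4 region they range from 11 to 76% and from 26 to 100%.

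The site table holds 5734 CpG cytosines in the 330 regions. Their mean was 85.67 ± 13.6% (SD over cytosines) in untreated and 34.34 ± 18.87% in treated cells. At 5197 (90.6%) the treated value was at least 30 points lower; over all DMRs it was 37.7% of cytosines. Since the same contrast chose the regions, this is a description. The loss was partial at most cytosines: in treated cells 23.1% were at or below 20%, 73.4% between 20 and 80% and 3.51% at or above 80%. The largest classes in treated cells were those from 20 to 30%, with 26% of values, and from 30 to 40%, with 22.7%, and 136 cytosines (2.37%) were at 90% or more. In the 311 regions with at most 50% soft-masked bases, 5331 cytosines had means of 86.27 ± 11.6% and 32.04 ± 15.17%. There 94.9% were lower by at least 30 points, 24.1% were at or below 20% in treated cells, 0.469% at or above 80% and 4 cytosines at 90% or more. The other 132 cytosines at 90% or more were in the 19 mostly soft-masked regions, whose treated cytosines averaged 64.82 ± 31.99%.

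Within a region the cytosines mostly differed in the same direction. Every cytosine was lower in treated cells in 306 of the 330 regions (92.7%), as compared to 85.1% of the regions of partial loss and 82.3% of losing regions that started below 80%. Every one was lower by at least 30 points in 173 (52.4%). The limits on the means select a large difference and so favour both counts, also over those of the other losing regions. Among the 19 mostly soft-masked regions these were 6 and 3. The median SD between cytosines of a region was 8.89 points in the untreated and 13.3 points in the treated group (8.60 and 12.9 in the 311), and it was the larger in treated cells in 251 regions (76.1%). This was so in 93% of the regions of partial loss and 33.7% of losing regions that started below 80%. Untreated means of at least 80% leave little room for spread, so that the choice of regions favours this. At the 2786 CpGs with a value on each strand, the plus and minus cytosine lay 4 points apart at the median in untreated cells and 7 points apart in treated ones. Read depth is not in the table, so that no interval can be given for a cytosine. In 79 regions (23.9%; 65 of the 311) at least 1 cytosine was at 70% or more in treated cells, among them Rgs16 (highest value of 79%), Nfkb1 (92%), the Ptpn22 intron (77%) and 3 of the 4 Wwox regions (highest values of 72, 78 and 83%). The treated values were lower inside a region than at its ends: with each region cut into 10 equal bins, the mean was 38.3 ± 18.9% in the first bin, 30.2 ± 17.4% in bin 3, 30.5 ± 18.1% in bin 6 and 37.2 ± 18.8% in the last. These differences are smaller than the SD over cytosines of a bin. Cytosines outside CpGs were hardly methylated in either group (CHG 1.62% and 1.67%, CHH 1.72% and 1.82%).

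**Figure D3:**
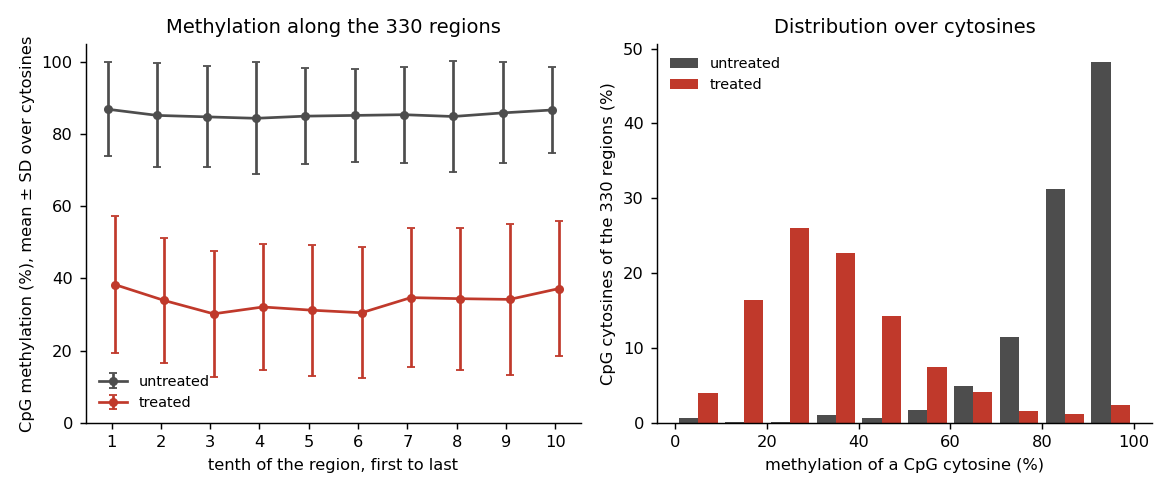
Left, mean ± SD over CpG cytosines of methylation (%) in 10 equal bins along the region, for untreated (grey) and treated (red) cells; untreated means stay between 84.4 and 86.9%, and treated means are lowest, at 30.2%, in bin 3. Right, the share of the 5734 cytosines (%) in each 10-point class of methylation: 48.2% of untreated values are at 90% or more, and the largest treated class is 20 to 30%, with 26%.

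The chromatin fragments of the multiome are independent of the rule. They give, for each nucleus, the places where a transposase cut open DNA. The file pools both groups, and barcodes end in 1 or 2. The sources used here do not say which ending is which group, so that the endings are compared as such. Barcodes with at least 1000 fragments were used: 8565 for ending 1 and 7237 for ending 2, with 162817764 and 149740716 insertions (fragment ends). In the 330 regions lay 20054 insertions of ending 1 and 151304 of ending 2. Per kb and per 1000000 insertions of the ending, that is 0.807 and 6.62. Relative to flanks 5 to 10 kb away, the median region had 0.805 times the insertions in ending 1 and 5.52 times in ending 2. At least 2 times the flanks was reached by 85 regions (25.8%) in ending 1, where 41.4% of all DMRs did so. In ending 2 it was reached by 241 (73.0%), as compared to 60.3% of all DMRs. The share of all DMRs joins unlike classes. Regions of partial loss had 14.4% in ending 1 and 49.8% in ending 2. The remaining losing regions had 51.7% and 76.1%, respectively, and gaining regions 63.4% and 51.3%. In the 311 regions with at most 50% soft-masked bases, the medians were 0.863 and 5.94, and 81 and 235 regions reached 2 times the flanks. At the median, then, the 330 regions had fewer insertions than their surroundings in ending 1 and more in ending 2. The regions of partial loss did so too, with medians of 0.692 in ending 1 and 1.99 in ending 2. The remaining losing regions were above their surroundings in both endings (medians of 2.15 and 6.74).

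Region by region, 293 of the 330 (88.8%) had at least 2 times the depth-scaled insertions in ending 2, a level that 50.4% of all DMRs reached. By class, 75.1% of the regions of partial loss reached it, 62% of losing regions that started below 80% and 2.13% of gaining regions. In the opposite direction it was 1 region (0.303%, as compared to 11.3% of all DMRs), an intron of the integrin gene Itgb6 with 6 insertions in ending 1 and 0 in ending 2. Of the 319 regions with any insertion, ending 2 was the higher in 316, and the median log2 ratio was 3.04. Of all 330, that is 95.8% with ending 2 higher. Other losing regions were close to this, with 93% in partial loss and 90.3% in those that started below 80%, and gaining regions had 12.5%. An exact 95% interval of the ratio, with every insertion taken as independent, lay above 0 in 304 regions and below 0 in 1. Both ends of a fragment can fall in the same region, so that the interval is too narrow even for counting error. It was not computed for the other DMRs. The flanks themselves were slightly higher in ending 2 (log2 of 0.289), and scaling by them gave 281 regions at that level. The median ratio was 2.01 in regions of partial loss, 1.48 in losing regions that started below 80% and -0.741 in gaining regions. With 1 library per ending, a difference between libraries that goes with these regions and a difference between the groups cannot be told apart. All 11 regions without an insertion in either ending were soft-masked over their whole length. Of the 311 regions with at most 50% soft-masked bases, 288 (92.6%) were at least 2 times higher in ending 2, with a median log2 ratio of 3.16.

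**Figure D4:**
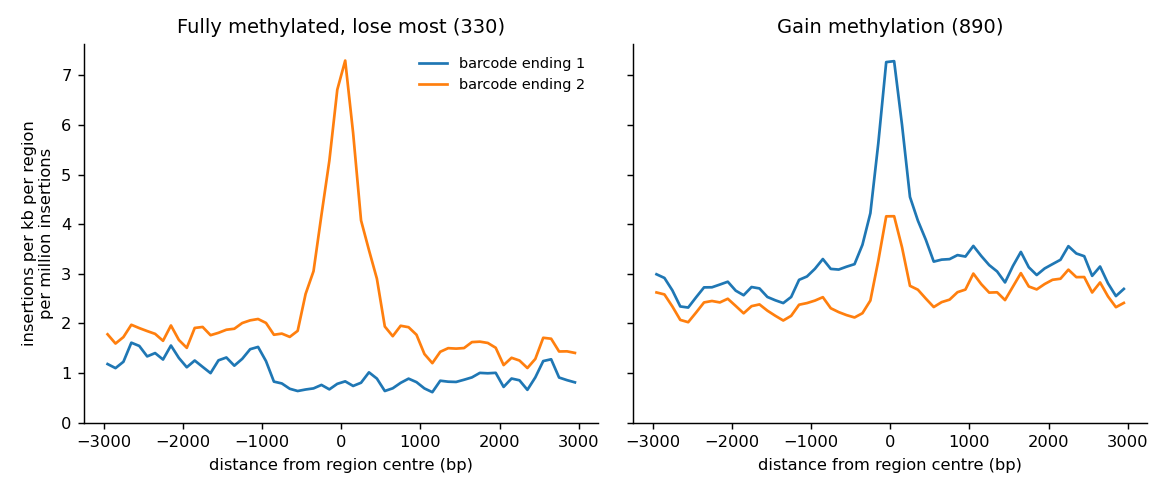
Insertions per kb per region, per 1000000 insertions of the ending, against the distance (bp) from the region's centre, for barcode ending 1 (blue) and 2 (orange), in the 330 regions (left) and in the 890 regions that gained methylation (right). At the centre of the 330 regions ending 2 reaches 7.30 and ending 1 0.835; in the gaining regions ending 1 reaches 7.28 and ending 2 4.16.

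The ratio was largest in an intron of Runx2, a Runt family transcription factor (chr17:44766414-44766825; 89.2% and 24.5% methylated in untreated and treated cells), with 9 insertions in ending 1 and 2040 in ending 2. Other large ratios were found in introns of the recombination gene Rad51b (1 and 187) and of Scfd2 (5 and 571) and in an exon of Mmaa (2 and 280). At Il10 the numbers were 44 and 907, 22 and 1576, and 57 and 2657, from the outermost region inwards. At Il21 they were 134 and 2471 at the start of the gene, 61 and 409 in the exon, 33 and 207 in the intron and 51 and 464 upstream. The intron of Ctla4 had 13 and 529, the regions between Ctla4 and Icos 27 and 901 and 8 and 729, and the one before Icos 33 and 102. The Nfil3 intron had 92 and 1919, Tnfrsf4 154 and 1616, and the Wwox regions up to 170 and 4483, the largest number of ending 2 in any of the 330. Of the 34 regions of the listed genes, 33 were at least 2 times higher in ending 2; the exception was the intron of Itgb1 (100 and 144, a log2 ratio of 0.645).

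Not all of them stood out from their surroundings. In ending 2 the first by the ratio to flanks lay in introns or exons of Med12l (160 times the flanks), the Notch coactivator gene Maml2 (115), outside Tet2 (106), in Zfp862-ps (102) and near the leukotriene receptor gene Cysltr2 (89.9). At the other end, among regions with an insertion in ending 2, were Arfgef2 (0.171), Agfg1 (0.181), Gng7 (0.191), the long region of Rgs16 (0.244) and Pde11a (0.290). Regions of Irf4 (0.415 to 1.27) and Prdm1 (0.857), which lie in coding exons or close to them, also did not exceed their flanks by much. In ending 1 the first by this ratio were Nfia (41.5), Itpr1 (35.4), Tox (34.9), Chchd3 (23.8) and Zfp862-ps (22.7); 32 regions (9.70%) had at least 5 times the flanks. Relative to flanks, ending 2 was lower in Nfia (36.2), near the same in Tox (36.1) and higher in Itpr1 (72.6), Chchd3 (49.1) and Zfp862-ps (102). By insertions scaled to depth, each of the 5 was higher in ending 2, with log2 ratios of 1.22 to 3.62.

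Short sequence motifs of T cell transcription factors were counted in the central 200 bases of each region, on both strands. TGANTCA, the site of AP-1, a dimer of FOS and JUN family proteins that is activated through the T cell receptor, was found in 93 of the 330 (28.2%). It was in 27.5% of the regions of partial loss, 16.5% of losing regions that started below 80%, 3.37% of gaining regions, 17% of all DMRs and 5.57% of 32851 windows of the same length just upstream of RefSeq transcription starts. Also above the share of all DMRs were GAAANNGAA, an IRF site (13% as compared to 9.85%), and GGGANTTCC, an NF-κB site (2.12%, that is 7 regions, and 1.57%). The other losing regions had similar shares: 12.2% and 1.89% in partial loss, 11.7% and 2.36% in those that started below 80%. Gaining regions had 4.83% and 0.337%. Below the share of all DMRs were the E-box CACGTG (2.12% as compared to 4.21%), AGATAA, bound by GATA-family factors (6.97% and 9.99%), and TGTGGT, a RUNX site (16.7% and 19.9%). In the regions of partial loss these were at 4.25%, 9.92% and 15.8%. GGAAA, the core of NFAT sites, occurred in 62.1% (60.7% of the regions of partial loss and 56.7% of all DMRs). TTCNNNGAA (STAT), TGCTGAC (MAF), AGGTGTGA (T-box) and CAGCTG (E-box) were at 8.48%, 4.55%, 1.21% and 9.70% (8.53%, 4.49%, 1.22% and 11.9% of all DMRs), and ACCGGAAG (ETS) was in none of the 330 and in 0.383% of all DMRs. Matches were counted for each motif on its own, and some can share bases, such as TGCTGAC with TGANTCA or GGAAA with GAAANNGAA. Counted per kb of the whole region instead, T-box matches stood at 0.581 times their density in all DMRs, STAT matches at 1.20 times and MAF matches at 1.35 times, so that for STAT the direction depends on the window. A match is a string of letters and not a measured site.

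Regions with TGANTCA differed little in methylation from those without (treated medians of 31.7% and 33.2%). Their ratio to flanks in ending 2 had a median of 8.05, as compared to 4.34 in the 237 regions without it, and the median log2 ratio of the endings was 3.49 and 2.82. In the 311 regions with at most 50% soft-masked bases these were 8.13 and 5.03, and 3.53 and 2.86. Parts of 3 regions with the motif in capitals show its setting (GRCm38, plus strand, 61 bases), chosen among those with the largest ratio of the endings. They lie at 496789 bp from the TSS of the growth regulator Myc (chr15:62482539-62482599), upstream of Il10 (chr1:131000528-131000588) and in Gpr155 and the non-coding Gm13703 (chr2:73361051-73361111).
Myc: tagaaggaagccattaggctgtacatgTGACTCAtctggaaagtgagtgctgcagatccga
Il10 with motif: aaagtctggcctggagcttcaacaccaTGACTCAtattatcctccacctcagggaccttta
Gpr155: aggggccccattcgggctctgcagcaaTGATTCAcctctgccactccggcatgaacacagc
The motif near Myc and Il10 reads TGACTCA and in Gpr155 TGATTCA. In the Il10 region it lies 7 bp from the centre.

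Expression was read from 273 untreated and 251 treated SmartSeq2 cells, with 172559865 and 149084200 counts. SmartSeq2 has no molecular identifiers, so that a count is a read. The T and iNKT markers Cd3d, Cd3e, Cd3g, Cd5, Trac, Zbtb16, Nkg7 and Il2rb were present in both groups (45.7 to 3590 and 71.9 to 3930 CPM, counts per 1000000 counts of the group). Markers of other cells went with the treated group: those of macrophages (Lyz2, C1qa and Csf1r) summed to 0.0116 CPM in the untreated and 1790 CPM in the treated group, of hepatocytes (4 of 4 genes) to 0 and 82.3 CPM, and of endothelial cells to 1.05 and 18.5 CPM, where only Pecam1 had reads. The NK cell gene Ncr1 was at 191 and 759 CPM, Klrb1c at 40.4 and 39.8 CPM and Eomes at 0 and 0.0268 CPM. B cell markers were at or near 0 in both (0.0116 and 0 CPM). Lyz2 was read in 0 untreated and 11 treated cells. Values without the 9 untreated and 19 treated cells that hold a read of these hepatocyte, B cell, macrophage or endothelial genes are given below for the gene sets and for the genes at 0 in untreated cells. Leaving these cells out moved the log2 ratio of the 20 listed genes by at most 0.328, for Itgb1, and took none of them across 2-fold. Beyond that, the part of other cells was not tested.

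Genes with one of the 330 regions in the body were more often higher in treated cells than lower. Of the 222, 208 are in the count tables, 38 of which had fewer than 10 counts. Of the remaining 170, 56 were at least 2-fold higher in treated cells (32.9%, as compared to 20.1% of all 15052 genes) and 22 at least 2-fold lower (12.9%, as compared to 17.2%), on the scale of log2(CPM + 1). Their median log2 ratio was 0.28 (0.309 with genes at 0 in a group set to 3 counts), as compared to 0.017 for all genes. Without the cells with other markers it was 55 and 25 genes and a median of 0.301. With stricter limits on the quality of cells it was 53 (36.1%) and 35 (23.8%) of 147 genes, as compared to 28.5% and 25.2% of all genes tested, so that the share of lower genes was nearer to that of all genes. The median there was 0.43, as compared to 0.0631 for all genes. Genes with another losing region but none of the 330 had 27.1% higher, 17.4% lower and a median of 0.231, so that the 330 regions did not set their genes far apart from the rest of the losing regions. Genes with a gaining region had 21.2% higher, 25.3% lower and a median of -0.11. Genes with a region within 2 kb of the TSS were few (4 of 16 higher, 2 lower), and of 81 genes with an intergenic region within 50 kb, 20 were higher and 11 lower.

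Among the 20 listed genes, Il10, Il21, Tnfrsf4 and Ctla4 had reads in treated cells only. Il10 had no count in untreated cells and was at 383 CPM in the treated group (95% interval of 380 to 386), where 32 of 251 cells carried it (12.7%, 8.89 to 17.5). The interval of the CPM takes every read as independent. Amplified reads of few cells are not, so that it is too narrow. Il21 had 0 and 97.5 CPM (26 treated cells), Tnfrsf4 0 and 172 CPM (16 cells) and Ctla4 0 and 4.62 CPM (16 cells). The reads of these genes came from few cells, and a single cell gave 14.9, 15.1, 35.4 and 22.1% of them, so that no fold is given. With no count in 273 cells, the exact 95% interval of the share of cells with a read reaches 1.34%. It covers counting error only. Without the cells with other markers the treated values were 376, 97.9, 186 and 4.96 CPM. The treated cells that the study placed in its sub-cluster 5 (57 cells) had most of these reads: Il10 was at 1380 CPM there, at 155 CPM in the treated cells of sub-cluster 2 (61 cells) and at 5.44 CPM in those of sub-cluster 4 (133 cells), and Tnfrsf4 at 671, 22.8 and 0 CPM. Icos was read in both groups (16.5 and 32.4 CPM) and in 50.9% of the cells of sub-cluster 5, as compared to 11.5% and 4.51% of treated cells of sub-clusters 2 and 4. Cd28 (49.5 and 56.7 CPM), Cd44 (167 and 201 CPM) and Itgb1 (202 and 186 CPM; 208 and 152 CPM without the cells with other markers) differed less than 2-fold.

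Of the signalling and transcription factor genes, Rgs16 was at 1.69 CPM in untreated cells, all from 1 cell, and at 24.7 CPM in treated cells (10 cells; log2 ratio of 3.25). Tet2 was at 12.3 and 68.1 CPM (2.38), Stat5b at 10.4 and 52.8 CPM (2.24), Tox at 9.91 and 43.6 CPM (2.03), Nfkb1 at 27.3 and 79.2 CPM (1.5) and Ikzf3 at 88.1 and 251 CPM (1.5). Much of this came from single cells: 1 cell gave 42.5% of the untreated and 43.1% of the treated Tet2 reads, with reads in 12 of 273 and 15 of 251 cells, and 1 cell gave 51.1% of the untreated Stat5b, 49.4% of the untreated Nfkb1 and 38.9% of the untreated Tox reads. Ikzf3 was read in 28 untreated and 50 treated cells. For Irf4 (4.43 and 15.3 CPM; 1.58), a single cell gave 82.7% of the untreated and 59.5% of the treated reads. Nfil3 (83.5 and 165 CPM; 0.97), Prdm1 (67.0 and 111 CPM; 0.72) and Stat3 (113 and 187 CPM; 0.72) were under 2-fold, Ptpn22 was at 512 and 495 CPM, and Nfia was almost unread (0.0406 and 0.309 CPM). Of the genes with several regions outside the lists, Prkca was at 7.37 and 87.3 CPM (18.3% of treated cells) and Itpr1 at 8.85 and 40.1 CPM (7.55 and 20.8 CPM without the cells with other markers), whereas Atxn1, with the most regions, was at 7.61 and 7.80 CPM, and Wwox at 12.8 and 0.879 CPM, from 3 untreated cells and 1 treated cell.

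**Figure D5:**
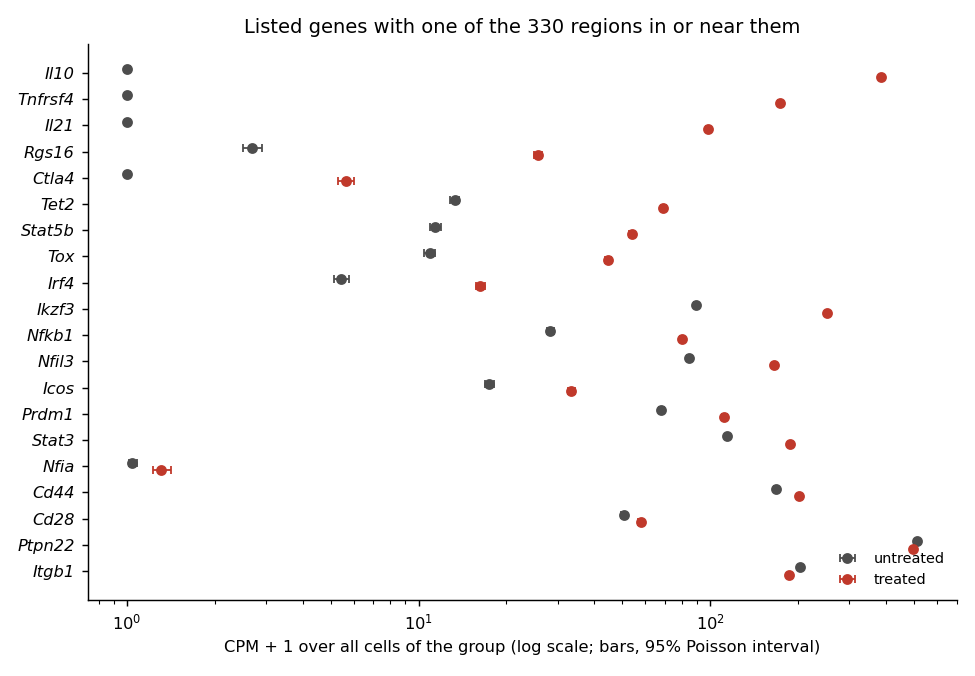
Expression (CPM + 1, log axis) of the 20 listed genes that have one of the 330 regions in the body or, outside genes, within 50 kb of the TSS, summed over untreated (grey) and treated (red) cells. Bars are exact 95% Poisson intervals, which cover only the counting error of reads taken as independent and so are too narrow. Il10, Tnfrsf4, Il21 and Ctla4 sit at 1, that is 0 CPM, in untreated cells, and Ptpn22 and Itgb1, the bottom pair, have the treated value below the untreated one.

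Where many cells carried a gene, the picture was mixed. There were 13 genes that had 500 counts or more, were read in 20% or more of the cells of a group and had one of the 330 regions in the body. The highest ratios were those of Nlrc5, a transactivator of MHC class I genes (194 and 300 CPM; log2 of 0.63), and Rin3, a Rab5 exchange factor (106 and 155 CPM; 0.55). Ablim1 (0.02), Sdf4 (-0.03), Ptpn22 (-0.05), Itgb1 (-0.12), Eif3h (-0.12) and Arhgap15 (-0.19) lay within 0.2 of 0; without the cells with other markers Itgb1 was at -0.45. Inpp4b (-0.27), Fyb (-0.40), Son (-0.56) and the anti-apoptotic gene Bcl2 (239 and 157 CPM; -0.61) were lower in treated cells, and the lowest was Tnfaip3, which encodes the NF-κB inhibitor A20 (601 and 250 CPM; -1.26). Of the 13, 0 were at least 2-fold higher and 1, Tnfaip3, at least 2-fold lower; of the 898 genes with as many counts and cells it was 4.12% and 2.56%. Of all 29 Tr1-associated genes with at least 10 counts, 18 were at least 2-fold higher and 0 lower, and of the 9 with a region in the body 5 were higher, with median log2 ratios of 1.58 and 1.5. In the other lists, genes at least 2-fold higher and lower were 8 and 8 of 35 for T cell receptor signalling, 5 and 7 of 24 for cytokine and TGF-β signalling, 3 and 4 of 23 for the iNKT lineage and 4 and 1 of 10 for the DNA methylation machinery, against the 20.1% and 17.2% of all genes. Without the cells with other markers these were 8 and 8, 5 and 6, 2 and 5, and 5 and 1, and 17 and 0 for the Tr1-associated genes.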

How the data were processed

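Per the study's methods, bisulfite reads were filtered, mapped to mm10 (GRCm38) with BSMAP and stripped of duplicates, and the authors deposited the methylated fraction of each cytosine and the mean fraction of each DMR called with metilene, as 1 value per group; how mice or replicates became 1 value is not given in the sources used here. The authors' region file also holds q-values (from metilene's test between the groups), used here only to order regions and for an alternative limit, and a column of differences, which was not used. The authors deposited SmartSeq2 counts per gene and cell (STAR, GRCm38) and multiome fragments (Cell Ranger ARC) with both libraries in 1 file. The number of CpG cytosines of a region is a count in the deposited file. Per the submitters' processing notes, the build was GRCm38.p6.

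Regions were joined to GENCODE M21 genes and GRCm38 sequence. Insertions were counted as fragment ends for barcodes with at least 1000 fragments, against flanks 5 to 10 kb away. Cell counts were summed per group over the 273 untreated and 251 treated cells in the study's annotation of sub-clusters, scaled to CPM, and compared as log2(CPM + 1) for genes with at least 10 counts. Intervals are exact (Poisson or binomial, 95%) and cover counting error only. Those of CPM and of insertions take reads or fragment ends as independent, so that they are too narrow. With 1 deposited value or pool of cells per group no p-value was computed. Python 3.11.15, pandas 2.3.3, scipy 1.17.1 and, for TMM factors, edgeR 4.0.16 were used, and the functions were tested on simulated data.

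The regions, gene lists and markers were chosen with earlier results of these data known. Regions were named when they were among the 10 with the lowest q-value or the largest difference, the 5 longest, the 5 with most CpGs, the 5 next to each limit, or the 5 most extreme in insertions; of those next to a limit only the nearest pair on each side is printed, and of the others only a part. Genes were named when a list held them and a region lay in the body or promoter or, between genes, within 50 kb, when they had 3 or more regions, or when they were among those with the largest ratios that had at least 500 counts and were read in 20% of cells. Rin2, Gm11127, Ccny and Stx11 are next to a limit, and a few further genes were named after their values were seen (Myc and Gpr155, for the motif). One region among those named by this rule is not reported here.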

Additional observations from a re-analysis of the deposited data

How the results depend on the processing

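Of the values recomputed under an alternative, 58 stayed inside the 95% interval of the reported value, within its SD between regions or, for counts, within 1.5 times, and 8 did not. With both limits stricter by 5 points 118 regions qualified, and with both looser by 5 points there were 630. Counting protein-coding genes only, 66.06% of the regions overlapped a gene body, and counting only the 2 kb upstream of a TSS, 3.939% lay near one. With the strands of a CpG averaged, 92.3% of CpGs were lower by at least 30 points, and with at most 50% soft-masked bases 94.9% of cytosines were. With all barcodes the median ratio to flanks in ending 1 was 0.9579. When cells needed 1000 genes or more and less than 10% mitochondrial counts, 35 genes with a region in the body were at least 2-fold lower in treated cells, in place of 22; this was 23.8% as compared to 25.2% of all genes, and the cause was not tested. The 95% intervals of the rarer motifs are wide: relative to all DMRs, the share of regions with a T-box match was 0.9918 and its density over whole regions 0.5805, and for STAT these were 0.9941 and 1.199. The alternatives with at most 50% soft-masked bases and without cells with other markers were added after the data were seen.

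No paired analysis was possible because each group has 1 deposited value or pool of cells, and no replicate was left out. Read depth per cytosine is unknown, the barcode endings carry no group, and the means of 13 of the 19 mostly soft-masked regions differ from their cytosines by over 10 points.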
